A study of Caenorhabditis elegans with 64 samples.

Results

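The 6 libraries described here measured mRNA in Caenorhabditis elegans carrying the simr-1(cmp36) mutation, 3 from animals in their second generation at 25°C and 3 from animals in their first generation at 25°C, of 30 mRNA libraries and 64 libraries in all. They were chosen by genotype, temperature and generation as the labels give them. SIMR-1 is a Tudor domain protein of germ cell foci that lies next to the mutator complex, and the question addressed here is what a second generation at the higher temperature did to the transcriptome of animals that lack it. All animals of these groups were simr-1(cmp36) mutants, grown as synchronized larvae on enriched peptone plates and harvested whole as day 1 adults after about 48 h at 25°C, with 10000 animals pooled in each sample and 3 biological replicates per group. The wild-type strain N2 was sampled in the same way, with 3 libraries each in generations 2 and 1. The mutation is a deletion carried through the whole animal in a single strain, and RNA was taken from whole bodies, so that fewer cells of a type and less RNA per cell cannot be told apart in any result below. Generation and the occasion of growth and harvest cannot be told apart either. Whether the groups differed in developmental stage at harvest was not tested.

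An adult hermaphrodite of C. elegans first makes a limited store of sperm as a larva and then switches its germline to oocytes, which it fertilizes with its own sperm. In the germline, Argonaute proteins loaded with small RNAs survey transcripts at the nuclear periphery, in P granules, Z granules and Mutator foci, and mutants of this system commonly lose fertility when kept at elevated temperature. The intestine supplies the oocytes with yolk, and the hypodermis lays down collagen cuticles at each larval moult.

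Library sizes lay between 17070697 and 30753398 estimated counts in generation 2 and between 12702687 and 19097033 in generation 1, and between 8055126 and 38633453 over all 30 mRNA libraries. Levels are given as CPM, the counts of a gene in every 1000000 counts of its library, scaled by the trimmed mean of M values (TMM). The mutated gene itself had 6.86, 7.79 and 7.47 CPM in generation 2, against 7.14, 7.92 and 8.9 CPM in generation 1, and did not pass the test (log2 fold change -0.21 ± 0.14 (SE), adjusted p = 0.18), with a log2 fold change of 0.10 with library size alone. Wild-type animals averaged 55.8 CPM in generation 2 and 66.6 CPM in generation 1, so that the mutants of both generations were far below wild-type, as their labels say. Across genes, log2 CPM values of 2 libraries from the same generation correlated at 0.986 to 0.994 and those of different generations at 0.823 to 0.888, across genes that are not independent replicates. Generation 2 replicate 1 lay nearest to the generation 1 libraries, with a mean correlation of 0.882, against 0.827 and 0.845 for replicates 2 and 3 of that generation. Between 18359 and 18982 genes had any count in generation 2 libraries, against 16564 to 16930 in generation 1 libraries.

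Of 17141 genes tested with edgeR's quasi-likelihood test, 4531 were higher and 1751 were lower in generation 2 with a change of 2-fold or more and a p that stayed within 0.05 after Benjamini-Hochberg adjustment, or 26.4% and 10.2% of the genes tested. The genes that rose and those that fell differed in level as well as in number. The typical gene that rose did so by a log2 fold change of 2.09 (median) and the typical gene that fell by -1.19, and 1350 of the risen genes reached 5 CPM in generation 2, whereas 1568 of the fallen genes had 5 CPM in generation 1. Among the gene lists examined, those of sperm proteins and cuticle collagens had the highest medians, and those of yolk, oocyte and germ granule genes the lowest. In 6189 of the 6282 changed genes the 3 libraries of one generation did not overlap with the 3 of the other, where 76.1% of all tested genes had no overlap. Over all genes the median log2 fold change was 0.28, against which the changes below should be read. The split depended on the scaling, since 72.1% of changed genes were higher with TMM and 92.3% with library size alone, which moved the median of all genes to 0.59.

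**Figure D1:**
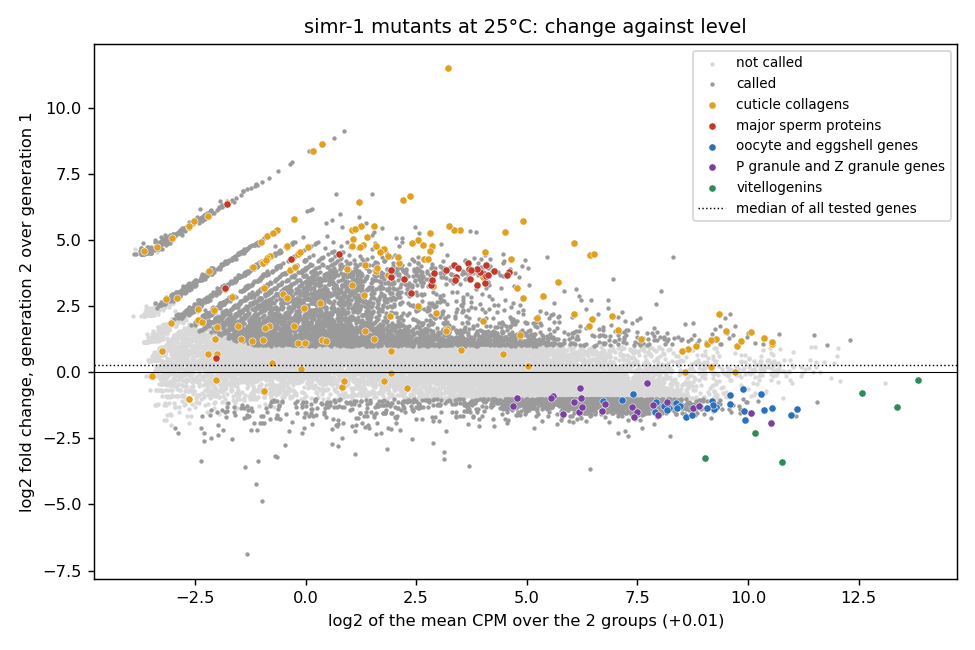
Log2 fold change of generation 2 over generation 1 in simr-1 mutants (vertical axis) against the log2 of the mean CPM of the 2 groups plus 0.01 (horizontal axis), 1 point per tested gene (17141), with called genes in darker grey and 5 gene lists in colour. Major sperm protein genes lie above the median of all genes (dotted, 0.28) and their list has a median of 3.76, whereas the tested oocyte, germ granule and vitellogenin genes lie below 0.

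Genes of sperm rose widely. Major sperm proteins form the cytoskeleton on which nematode sperm crawl and also signal to oocytes to mature, and 32 of the 33 tested genes for them were higher and none was lower, with a median log2 fold change of 3.76 beside 0.28 for all genes (3.70 with the gene that had no count in generation 1 at its lower bound). The remaining gene, msp-32, with 0.411, 0.331 and 0.102 CPM in generation 2, against 0.242, 0.163 and 0.172 CPM in generation 1, did not pass the test. Summed over the 33 genes, their mRNA came to 550.3, 782 and 652 CPM in generation 2, against 37.8, 51.4 and 53.8 CPM in generation 1. Every library of generation 2 thus lay above every library of generation 1. Members of this family are nearly identical in sequence, so that reads could be divided between them and single members are less certain than the sum.

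Among single sperm protein genes msp-3 had 18.6, 30.9 and 22.5 CPM in generation 2, against 0.726, 1.39 and 1.72 CPM in generation 1. It was 17.5-fold higher in generation 2 (log2 fold change 4.13 ± 0.25 (SE), adjusted p = 7.2e-10), and the libraries of the generations did not overlap. A less abundant member, msp-65, had 2.29, 4.64 and 2.82 CPM in generation 2, against 0.242, 0.163 and 0 CPM in generation 1, and msp-63 rested on 3 counts in generation 1, with a ratio of 22.1 (95% exact binomial interval 7.36 to 109). No count of msp-42 was seen in generation 1, and it was at least 8.64-fold higher in generation 2, taking a floor of 3 counts over the 3 libraries of generation 1.

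Other genes needed to make or activate sperm followed, with 59 of 69 tested members higher and 3 lower (median 2.95). The gene spe-8, for a tyrosine kinase that acts in sperm activation, had 2.61, 3.76 and 2.56 CPM in generation 2, against 0.0605, 0.163 and 0.115 CPM in generation 1. This was a 24.2-fold rise (log2 fold change 4.60 ± 0.41 (SE), adjusted p = 3.4e-08), although 5 counts in all stood behind the generation 1 level. The sperm genes ssp-33 and spe-49 rested on 3 and 1 counts in generation 1, giving ratios of 24.5 (95% exact binomial interval 8.16 to 120.4) and 30.3 (95% exact binomial interval 5.17 to 1220), and ssp-32, with no count there, was at least 6.61-fold higher. The 3 members that fell ran against the list, and with library size alone none of the 69 was lower. The transcription factor gene spe-44, which directs gene expression in spermatocytes, had 13.8, 12.3 and 12.6 CPM in generation 2, against 26.8, 26.4 and 27.7 CPM in generation 1 (log2 fold change -1.15 ± 0.10 (SE), adjusted p = 2.1e-08). The others were zipt-7.1, for a zinc transporter that acts in sperm activation (log2 fold change -1.06), and spe-39, for a protein of vesicle traffic (log2 fold change -1.27).

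Markers of males were examined beside the sperm genes, since males also make sperm. Of 8 such markers 6 were higher and 1 was lower, and their summed mRNA was 44.4, 49.1 and 46.7 CPM in generation 2, against 24.1, 23.8 and 22.7 CPM in generation 1. Most of this sum came from swm-1, for a protease inhibitor that restrains sperm activation in males, which had 38.7, 40.8 and 39.6 CPM in generation 2, against 18.8, 17.8 and 17.4 CPM in generation 1. The defining markers of male neurons and the male tail, pkd-2, lov-1, cwp-1, cwp-4 and ram-5, stayed at or below 0.614 CPM in all 6 libraries, and 4 of these 5 were called higher. The C-type lectin gene clec-207 had 2.55, 4.36 and 3.33 CPM in generation 2, against 0.242, 0.245 and 0.23 CPM in generation 1, while the mating plug gene plg-1 was the one that fell (2.83-fold). The part of males in the sperm results was not tested. With DESeq2 2 markers rather than 6 were called higher, and the calls of lov-1 and cwp-4 were also lost without single libraries, with adjusted p up to 0.075 for lov-1 without generation 1 replicate 1 and 0.10 for cwp-4 without generation 1 replicate 3.

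**Figure D2:**
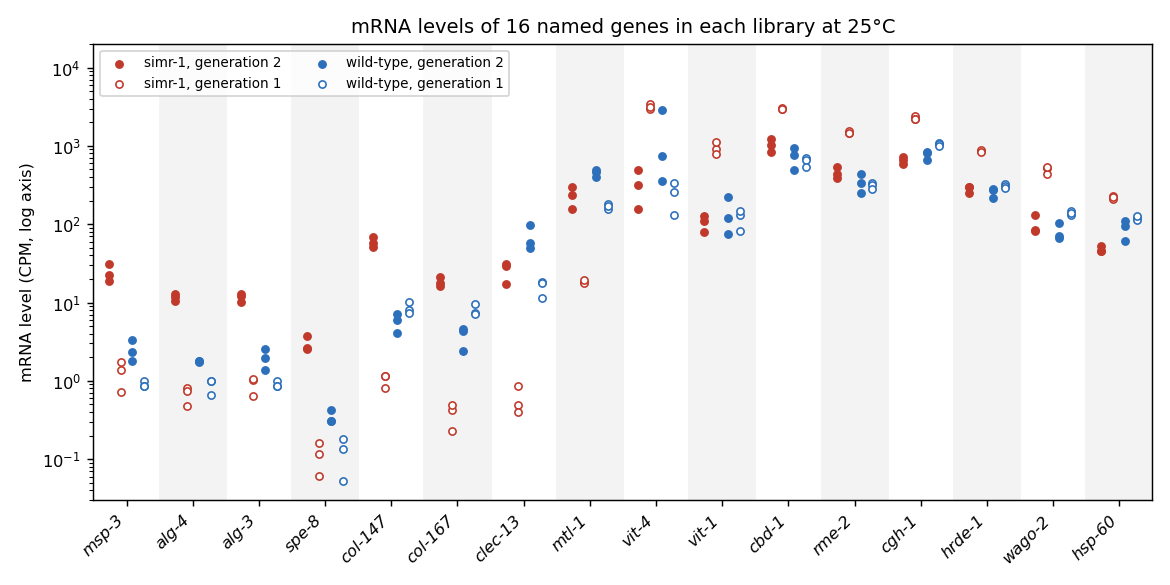
mRNA level in CPM (logarithmic axis) of 16 named genes in each of the 12 libraries at 25°C, with simr-1 mutants in red and wild-type animals in blue, generation 2 filled and generation 1 open, 1 point per library. In simr-1 mutants msp-3 lay at 18.6 to 30.9 CPM in generation 2, against 0.726 to 1.72 CPM in generation 1, while rme-2 lay at 394 to 536 CPM in generation 2, against 1440 to 1538 CPM in generation 1.

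Oocyte genes went the other way. None of 29 tested oocyte and eggshell genes was higher and 25 were lower, with a median log2 fold change of -1.31, and their summed mRNA was 13119, 10874 and 11233 CPM in generation 2, against 27441, 25783 and 28460 CPM in generation 1. With library size alone as the scaling 14 of the 29 were lower. The eggshell gene cbd-1, for a chitin-binding protein, had 1229, 829.8 and 1014 CPM in generation 2, against 2961, 3022 and 2966 CPM in generation 1 (log2 fold change -1.63 ± 0.13 (SE), adjusted p = 1.2e-08), one of the 5 largest falls in CPM among called genes. The yolk receptor gene rme-2 had 536, 394 and 440.2 CPM in generation 2, against 1440, 1538 and 1483 CPM in generation 1 (log2 fold change -1.79 ± 0.12 (SE), adjusted p = 1.5e-09), and no library of either gene overlapped between generations. Likewise lin-41, for a TRIM-NHL protein that keeps oocytes from maturing too early, fell 3.22-fold, and chs-1, the chitin synthase of the eggshell, fell 3.1-fold. The 4 members that did not pass were perm-2, perm-4, cey-3 and skn-1, with log2 fold changes of -0.65, -0.84, -0.85 and -0.84.

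Yolk protein genes, which are transcribed in the intestine and not in the germline, fell as well, in 4 of 6 cases (median -1.82). The summed vitellogenin mRNA was 24017, 24318 and 28537 CPM in generation 2, against 41063, 49746 and 42005 CPM in generation 1. The largest fold change among them was in vit-4, which had 487, 155 and 320.4 CPM in generation 2, against 2933, 3474 and 3119 CPM in generation 1 and so was 10.6-fold lower (log2 fold change -3.40 ± 0.28 (SE), adjusted p = 1.1e-08). Close behind came vit-1, with 128, 79.7 and 111 CPM in generation 2, against 906, 1114 and 789 CPM in generation 1 (log2 fold change -3.23 ± 0.16 (SE), adjusted p = 1.5e-10), whereas vit-3 fell 4.99-fold and vit-6 2.49-fold. For vit-6 the levels were 7136, 5514 and 6476 CPM in generation 2, against 14254, 16305 and 14075 CPM in generation 1, the largest fall in CPM of all genes. The remaining members, vit-5 and vit-2, did not reach the 2-fold limit. For vit-5 the levels were 4147, 4473 and 5471 CPM in generation 2, against 6924, 8559 and 7385 CPM in generation 1 (log2 fold change -0.79), and for vit-2 they were 11668, 13802 and 15697 CPM in generation 2, against 14412, 18053 and 14874 CPM in generation 1 (log2 fold change -0.29, adjusted p = 0.12). Since vit-3, vit-4 and vit-5 are close copies, reads between them could be misassigned.

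The promoters of the yolk genes are shown because the family shares a short element in them. Of windows from 250 bases before to 50 bases after the annotated gene start, 5 of 6 vitellogenin windows held CTGATAA, the site of intestinal GATA factors, on either strand, against 8.21% of 19971 windows of all protein-coding genes. Among genes called higher the share was 9.1%, and among genes called lower it was 6.08%. The windows of vit-4 (chrX:3563916-3564215, minus strand) and vit-6 (chrIV:8260907-8261206, plus strand) were read from the RefSeq genome of build WBcel235 and are given in the direction of the gene, with the match in capitals.
vit-4: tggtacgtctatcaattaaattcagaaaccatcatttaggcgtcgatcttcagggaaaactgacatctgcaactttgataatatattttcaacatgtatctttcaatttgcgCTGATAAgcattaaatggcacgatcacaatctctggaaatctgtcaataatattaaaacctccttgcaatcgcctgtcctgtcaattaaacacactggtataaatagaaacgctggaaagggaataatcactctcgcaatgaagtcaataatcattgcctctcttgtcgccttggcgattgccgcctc
vit-6: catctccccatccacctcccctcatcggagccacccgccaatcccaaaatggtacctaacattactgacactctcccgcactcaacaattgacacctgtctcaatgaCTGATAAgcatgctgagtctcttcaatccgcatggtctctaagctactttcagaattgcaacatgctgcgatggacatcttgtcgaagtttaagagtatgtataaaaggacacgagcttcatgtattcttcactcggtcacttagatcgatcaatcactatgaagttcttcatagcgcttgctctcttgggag
A match is a description of the sequence only, and binding was not measured.

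Genes of the germline small RNA machinery fell in large part. Of 23 genes for components of P granules and Z granules 17 were lower and none was higher (median -1.29), with summed levels of 3530, 3000 and 3066 CPM in generation 2, against 8453, 7991 and 8387 CPM in generation 1. The DEAD-box helicase gene cgh-1 had 716, 581 and 651 CPM in generation 2, against 2442, 2230 and 2187 CPM in generation 1. Its fall was 3.75-fold (log2 fold change -1.91 ± 0.11 (SE), adjusted p = 5.8e-10), the largest in this list, and glh-4, pgl-3 and pid-5, for a further helicase and 2 granule proteins, fell 3.22-fold, 3.09-fold and 3.02-fold.

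Argonaute genes moved in both directions. Of 24 tested, 15 were lower and 3 were higher (median -1.12). The 3 that rose included alg-4 and alg-3, a pair of Argonautes that bind 26G RNAs during spermatogenesis. The alg-4 mRNA had 10.4, 11.6 and 12.8 CPM in generation 2, against 0.484, 0.816 and 0.746 CPM in generation 1 and rose 16-fold, and alg-3 had 10.1, 12.9 and 12.2 CPM in generation 2, against 1.03, 1.06 and 0.631 CPM in generation 1 (log2 fold change 3.62 ± 0.21 (SE), adjusted p = 5.2e-10). The third was wago-10, with 1.91, 2.6 and 2 CPM in generation 2, against 0.303, 0.571 and 0.172 CPM in generation 1 (log2 fold change 2.60 ± 0.37 (SE), adjusted p = 7.1e-06). Among those that fell, wago-2, which binds secondary small RNAs, had 132, 81.9 and 83.2 CPM in generation 2, against 518, 440.0 and 543 CPM in generation 1 and was 5.36-fold lower (log2 fold change -2.42 ± 0.15 (SE), adjusted p = 8.1e-10). The nuclear Argonaute gene hrde-1, needed to inherit silencing, had 295, 248 and 299 CPM in generation 2, against 872, 895 and 839 CPM in generation 1 (log2 fold change -1.72 ± 0.10 (SE), adjusted p = 6.0e-10). The Piwi gene prg-1 fell by less, with 193, 181 and 190.2 CPM in generation 2, against 383, 404 and 382 CPM in generation 1 (log2 fold change -1.14), and csr-1, whose protein binds small RNAs to expressed germline genes, had a log2 fold change of -1.32. Both alg-1 and alg-2, which bind miRNAs, stayed within the 2-fold limit (log2 fold changes -0.21 and -0.54).

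The mutator complex and RNA-dependent RNA polymerase list had 13 of 23 members lower and none higher (median -1.08). Among them, rrf-3, the polymerase that starts 26G RNAs, had 52.4, 41.1 and 46.2 CPM in generation 2, against 123, 141 and 115 CPM in generation 1 (log2 fold change -1.53 ± 0.10 (SE), adjusted p = 1.8e-09). The paralog of simr-1, hpo-40, had 70.7, 59 and 65 CPM in generation 2, against 186, 170.0 and 169 CPM in generation 1 (log2 fold change -1.52 ± 0.08 (SE), adjusted p = 2.8e-10). The helicase gene drh-3 and the polymerase gene ego-1 fell 2.82-fold and 2.44-fold. Of 21 genes of nuclear RNAi and heterochromatin 13 were lower and none was higher, and besides hrde-1 these included the histone methyltransferase genes met-1, set-32 and set-2, with log2 fold changes of -1.43, -1.38 and -1.24. Many of these changes lay near the 2-fold limit, and with library size alone 3 of 23 mutator and polymerase genes, 3 of 21 nuclear RNAi genes, 11 of 23 granule genes and 10 of 24 Argonautes were called lower, and ego-1 and set-2 lost their calls.

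Genes of cell division and meiosis, which in adults take place in the germline, fell in part. DNA replication and cell cycle genes had 18 of 30 members lower and 1 higher (median -1.02), with cyclin E gene cye-1 at 142, 114 and 135 CPM in generation 2, against 346, 305 and 324 CPM in generation 1 (log2 fold change -1.41 ± 0.09 (SE), adjusted p = 1.5e-09). The replicative helicase genes mcm-2 and mcm-3 and the ribonucleotide reductase gene rnr-1 fell 2.61-fold, 2.45-fold and 2.55-fold. The exception was cki-1, which encodes an inhibitor of the cell cycle kinases, with 15.7, 19.8 and 20.1 CPM in generation 2, against 9.02, 6.77 and 6.08 CPM in generation 1 (log2 fold change 1.25). Meiotic axis and synaptonemal complex genes had 13 of 30 members lower and none higher, led by the meiotic kinase gene chk-2, with 6.36, 5.08 and 6.14 CPM in generation 2, against 16.4, 17.9 and 18.3 CPM in generation 1 (log2 fold change -1.66 ± 0.13 (SE), adjusted p = 6.4e-09), and followed by syp-4, syp-5 and msh-5 with folds of 2.78, 2.63 and 2.63. Cell death and engulfment genes had 8 of 26 lower and 2 higher. The zinc finger gene gla-3, which restrains germ cell death, fell 3.22-fold and the engulfment gene ced-5 3.17-fold, while of the caspase genes csp-1 fell (log2 fold change -1.55) and csp-2 rose (1.43). With library size alone the lower calls were 3 for replication (without mcm-3), 5 for meiosis and 3 for cell death, and with all 30 mRNA libraries in a fit 8 replication genes were lower.

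General germline markers moved in the same direction as these lists. Of 8 such markers 6 were lower and none was higher, among them gld-1, a regulator of translation, with 588, 471 and 501 CPM in generation 2, against 1364, 1171 and 1337 CPM in generation 1. The helicase gene glh-1 and the granule gene pgl-1 fell 2.55-fold and 2.41-fold. With library size alone 3 of the 8 were lower, and pgl-1 was not among them. Summed over all 8, the markers had 1764, 1512 and 1559 CPM in generation 2, against 3814, 3552 and 3872 CPM in generation 1, and what part the amount of germline tissue has in the lists above was not tested.

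Markers of somatic tissues are read beside the 26.4% of all genes that were higher, and those of intestine and pharynx were near that share. Muscle markers had 4 of 7 members higher and none lower, with the myosin gene myo-3 at 149.8, 224 and 248 CPM in generation 2, against 60.8, 62.3 and 63.5 CPM in generation 1 (log2 fold change 1.64 ± 0.14 (SE), adjusted p = 1.8e-08), the myosin gene unc-54 up 2.76-fold, the paramyosin gene unc-15 up 2.39-fold, and hlh-1, the muscle regulator related to MyoD, up 2.32-fold. Markers of neurons had 4 of 8 higher, and the summed neuron markers had 305, 349 and 325 CPM in generation 2, against 252, 229 and 273 CPM in generation 1. These 4 were the neuropeptide processing genes egl-3 and egl-21 and the synaptic genes rab-3 and ric-4, at 2.85-fold, 2.34-fold, 2.59-fold and 2.55-fold. Intestinal markers had 2 of 7 (28.6%) higher, ifb-2 and cpr-1 (5 of 7 with library size alone), and the pharynx list 2 of 6 (33.3%), tnt-4 and marg-1, or 4 of 6 without generation 2 replicate 1 or with library size alone. The intestinal transcription factor gene elt-2 had 23.3, 24.5 and 21.2 CPM in generation 2, against 12.2, 11.9 and 12.4 CPM in generation 1 and stayed under the 2-fold limit (log2 fold change 0.83).

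Cuticle collagens rose in most cases, with 129 of 160 tested genes higher and none lower (median 3.16, or 2.80 with the 11 genes that had no count in generation 1 set at their lower bound). Their summed mRNA was 22348, 21758 and 18882 CPM in generation 2, against 8357, 7244 and 10815 CPM in generation 1. Among them col-117 had 15.3, 22.3 and 18.6 CPM in generation 2 and no count in any of the 3 libraries of generation 1. It was at least 288-fold higher, taking 3 counts over the group as the floor. Within some other groups its level varied widely, at 5.32 ± 5.11 CPM in wild-type generation 1 and 9.55 ± 7.06 CPM in simr-1 generation 10 (SD, n = 3 each). Of the others without a count in generation 1, col-169 and col-36 were at least 39.3-fold and 34.2-fold higher. On firmer counts stood col-147, with 50.6, 69.5 and 57 CPM in generation 2, against 1.15, 0.816 and 1.15 CPM in generation 1, a 52.1-fold rise (log2 fold change 5.70 ± 0.18 (SE), adjusted p = 2.0e-12), and col-167, with 17.9, 21.4 and 16.2 CPM in generation 2, against 0.424, 0.49 and 0.23 CPM in generation 1 (log2 fold change 5.54 ± 0.23 (SE), adjusted p = 4.0e-11). Also among the 8 largest rises were the collagens col-161, col-62 and col-91, with folds of 102, 91.9 and 46.1 that rest on 4, 4 and 5 counts in generation 1, and those of col-62 all lay in replicate 1. In CPM, the gain of col-140 was one of the 5 largest of called genes, with 2246, 2160 and 1906 CPM in generation 2, against 835, 717 and 1128 CPM in generation 1 (log2 fold change 1.15 ± 0.14 (SE), adjusted p = 1.2e-06).

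The collagens that rose included classic genes of body shape as well as the adult collagen col-19, a marker of the hypodermis. Mutations of rol-6 make animals roll, and rol-6 had 3.55, 5.3 and 3.28 CPM in generation 2, against 0.0605, 0.163 and 0.115 CPM in generation 1 (log2 fold change 5.04 ± 0.41 (SE), adjusted p = 1.1e-08). For col-19 the levels were 1215, 1115 and 963 CPM in generation 2, against 334, 273 and 450.2 CPM in generation 1 (log2 fold change 1.55 ± 0.14 (SE), adjusted p = 4.6e-08). The short-body gene dpy-13, named after its values were seen, had 10.1, 12.9 and 10.7 CPM in generation 2, against 0.303, 0.49 and 0.23 CPM in generation 1 (log2 fold change 4.99), and wild-type animals averaged 0.751 CPM in generation 2 and 0.199 CPM in generation 1. In the remaining hypodermal markers wrt-2 had 0.616, 0.994 and 0.358 CPM in generation 2, against 0.363, 0.326 and 0 CPM in generation 1, a call with overlapping libraries (adjusted p = 0.047) that was lost with DESeq2 and without any of 4 single libraries, with an adjusted p of up to 0.21 without generation 1 replicate 3. The hedgehog-related gene grd-10 had 5.19, 7.23 and 4.76 CPM in generation 2, against 1.27, 1.47 and 3.44 CPM in generation 1, with a log2 fold change of 1.33 (1.97 without generation 1 replicate 3). Of 7 hypodermal markers 5 were higher, or 3 with DESeq2 and without generation 1 replicate 3. Of 25 genes for moulting 8 (32%) were higher and 1 was lower, near the 26.4% of all genes that were higher, and with library size alone 14 of 25 were higher, where 35.3% of all genes were. The lipocalin gene lpr-3 and the moulting genes mlt-9, wrt-4 and mlt-11 rose 4.59-fold, 4.49-fold, 3.85-fold and 2.89-fold. Without generation 1 replicate 1 the log2 fold change of mlt-11 was 2.64 in place of 1.53. In contrast nhr-23, the nuclear receptor that drives moulting cycles, had 28.1, 25 and 25.2 CPM in generation 2, against 59.9, 65.5 and 60.2 CPM in generation 1 (log2 fold change -1.33).

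**Figure D3:**
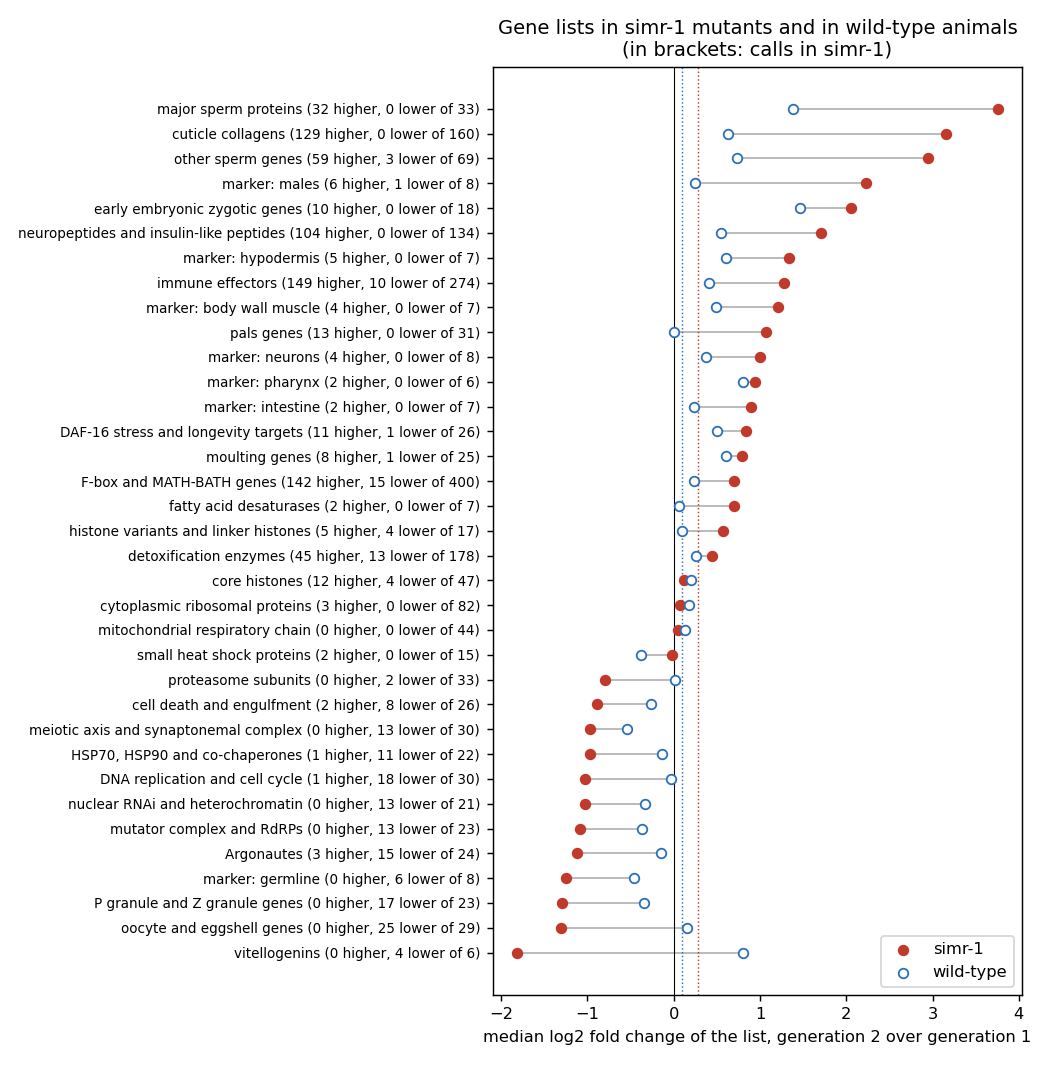
Median log2 fold change of generation 2 over generation 1 (horizontal axis) for each of 35 gene lists, in simr-1 mutants (red, filled) and in wild-type animals (blue, open), with the counts called in simr-1 mutants in brackets and the medians of all tested genes dotted. Major sperm proteins had the highest median in simr-1 mutants (3.76) and vitellogenins the lowest (-1.82).

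Many chaperone genes fell, between 2 generations that were both kept at 25°C. Of 22 genes of the HSP70, HSP90 and co-chaperone list 11 were lower and 1 was higher (median -0.97), while 5 were lower with library size alone, without hsp-90, and 7 with all 30 mRNA libraries in a fit. The constitutive HSP70 gene hsp-1 had 1184, 1032 and 1074 CPM in generation 2, against 3352, 3029 and 3345 CPM in generation 1 (log2 fold change -1.65 ± 0.11 (SE), adjusted p = 1.9e-09), and hsp-90 had 1920, 1933 and 2130 CPM in generation 2, against 4144, 3932 and 4099 CPM in generation 1 (log2 fold change -1.11 ± 0.11 (SE), adjusted p = 1.5e-07). The largest fall was in hsp-60, the mitochondrial chaperonin, with 52.4, 45.6 and 45.4 CPM in generation 2, against 212, 230.3 and 219.5 CPM in generation 1 (log2 fold change -2.30 ± 0.09 (SE), adjusted p = 1.7e-11), while hsp-110 and dnj-13 fell 3.93-fold and 3.03-fold. The heat-inducible gene hsp-70 was the one to rise, with 2.2, 2.54 and 2.3 CPM in generation 2, against 0.908, 0.979 and 0.746 CPM in generation 1 (log2 fold change 1.33). Wild-type animals had none of the 22 called in either direction. Their summed mRNA averaged 7349 CPM in generation 2 and 7796 CPM in generation 1, beside 5448 and 11957 CPM in simr-1 mutants. Of 15 small heat shock protein genes 2 (13.3%) were higher and none was lower (median -0.02), beside 26.4% and 10.2% of all genes. The 2 that rose were hsp-12.1 and hsp-12.6, with folds of 2.78 and 2.36, and 5 rather than 2 were higher with library size alone and without generation 2 replicate 1. Without generation 2 replicate 3, hsp-12.6 came to a log2 fold change of 0.95 and lost its call.

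The motif TTCNNGAA, which forms only part of a heat shock element, was searched on either strand. It lay in 9 of 22 promoter windows of the HSP70 and HSP90 list, against 19% of all windows. Among windows of genes called higher the share was 18.1%, and among those of genes called lower it was 19.4%. The window of hsp-1 (chrIV:17278709-17279008, plus strand, WBcel235) is shown because hsp-1 had the largest fall in CPM among the named chaperones with a match, which is in capitals.
hsp-1: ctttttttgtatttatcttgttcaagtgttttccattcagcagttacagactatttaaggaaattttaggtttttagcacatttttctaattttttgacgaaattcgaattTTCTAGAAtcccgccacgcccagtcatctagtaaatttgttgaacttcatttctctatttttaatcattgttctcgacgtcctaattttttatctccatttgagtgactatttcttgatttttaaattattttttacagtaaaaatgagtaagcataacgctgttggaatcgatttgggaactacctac

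Lists of general cell functions had few calls. Of 82 cytoplasmic ribosomal protein genes 3 were higher and none was lower, and their median of 0.08 changed sign with DESeq2's size factors. The 3 were rpl-11.2, with 773, 982 and 848 CPM in generation 2, against 294, 279 and 338 CPM in generation 1 (log2 fold change 1.42 ± 0.11 (SE), adjusted p = 6.8e-09), rpl-23A.1, which rose 2.38-fold, and the rarely expressed rpl-42, which rested on 5 counts in generation 1. None of 44 respiratory chain genes passed in either direction (0 higher and 2 lower with DESeq2, 3 higher and 0 lower with library size alone), with atp-2 at 956, 924 and 991 CPM in generation 2, against 1652, 1546 and 1638 CPM in generation 1 (log2 fold change -0.84) and atp-1 at a log2 fold change of -0.78. Proteasome subunits had 2 of 33 lower, rpn-1 (log2 fold change -1.36 ± 0.10 (SE), adjusted p = 2.8e-09) and rpn-13 (log2 fold change -1.02), and the list had a median of -0.80. With DESeq2 7 of the 33 were lower, and 4 without generation 1 replicate 2, while rpn-13 lost its call without generation 1 replicate 3 (log2 fold change -0.99) and with library size alone (-0.71).

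Core histone genes were called about as often as all genes. The libraries were prepared from polyadenylated RNA, and core histone mRNA largely lacks poly(A), so core histone levels are uncertain. Of 47 core histone genes 12 were higher and 4 were lower (none lower with library size alone), or 25.5% and 8.51% beside 26.4% and 10.2% of all genes, with his-17, his-8, his-51 and his-26 up 4.2-fold, 4.03-fold, 3.22-fold and 2.83-fold. Their summed mRNA was 516, 594 and 553 CPM in generation 2, against 500.4, 586 and 497 CPM in generation 1, so that the sums overlapped. Of 17 variants and linker histones 5 (29.4%) were higher and 4 (23.5%) were lower, or 2 lower without generation 2 replicate 3 or generation 1 replicate 3. Among them, the linker histone gene his-24 had 65.2, 94.2 and 61.6 CPM in generation 2, against 19.8, 13.7 and 16.4 CPM in generation 1 (log2 fold change 2.05 ± 0.15 (SE), adjusted p = 3.7e-09) and hil-3 rose 3.95-fold, while hil-4 had 179, 156 and 132 CPM in generation 2, against 389, 341 and 457 CPM in generation 1 (log2 fold change -1.44 ± 0.11 (SE), adjusted p = 9.1e-09). The H3.3-type gene his-70 had 1.41, 1.6 and 1.79 CPM in generation 2, against 0.121, 0 and 0.115 CPM in generation 1 (log2 fold change 4.01 ± 0.49 (SE), adjusted p = 1.3e-06), 4 counts in all in generation 1.

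Immune effector genes were higher in 149 of 274 cases and lower in 10 (median 1.28). Their summed mRNA averaged 61105 CPM in generation 2 and 32100 CPM in generation 1. In wild-type animals the sum averaged 67840 CPM in generation 2 and 59028 CPM in generation 1. The list takes in C-type lectins, lysozymes and saposin-like peptides. The lectin gene clec-13 had 17.3, 28.9 and 30.7 CPM in generation 2, against 0.847, 0.49 and 0.402 CPM in generation 1, a 40.6-fold rise (log2 fold change 5.34 ± 0.29 (SE), adjusted p = 2.6e-10), and clec-14 had 2.7, 4.97 and 3.48 CPM in generation 2, against 0.182, 0 and 0.115 CPM in generation 1 (log2 fold change 4.91 ± 0.47 (SE), adjusted p = 6.9e-08, and a log2 fold change of 5.54 without generation 1 replicate 1). The members clec-236 and spp-19, without a count in generation 1, were at least 7.6-fold and 3.16-fold higher. The lysozyme gene lys-4 was among the 5 largest gains in CPM of called genes, with 2030, 2698 and 2673 CPM in generation 2, against 908, 794 and 853 CPM in generation 1 (log2 fold change 1.45 ± 0.13 (SE), adjusted p = 2.2e-08). Of 31 pals genes, a family induced by intracellular infection, 13 were higher and none was lower. Summed pals mRNA averaged 149 CPM in generation 2 and 98.8 CPM in generation 1, beside 256 and 245 CPM in wild-type. The most abundant of those named was pals-39, with 3.64, 4.64 and 4.04 CPM in generation 2, against 0.726, 1.22 and 1.15 CPM in generation 1 (log2 fold change 1.90 ± 0.24 (SE), adjusted p = 2.0e-06), whereas pals-15, pals-3 and pals-7 rested on 2 counts each in generation 1, with ratios of 28.6 (95% exact binomial interval 7.7 to 240.2), 6.12 (95% exact binomial interval 1.48 to 54.2) and 6.12 (95% exact binomial interval 1.48 to 54.2). The calls of pals-3 and pals-7 were lost with DESeq2 and without several single libraries, with adjusted p up to 0.10 for pals-3 without generation 1 replicate 1 and 0.13 for pals-7 without generation 1 replicate 3.

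Of 26 targets of DAF-16, the FOXO factor of insulin signalling, 11 were higher and 1 was lower (median 0.83). These were 42.3% and 3.85% of the list, beside 26.4% and 10.2% of all genes. The metallothionein gene mtl-1 had 156, 296 and 239 CPM in generation 2, against 18.5, 17.9 and 19.5 CPM in generation 1 (log2 fold change 3.54 ± 0.18 (SE), adjusted p = 1.5e-10). Its 11.6-fold rise was the largest of the list, ahead of dod-3 (9.72-fold), the thaumatin-like gene thn-1 (6.71-fold) and the superoxide dismutase gene sod-3, with 3.58, 8.84 and 6.81 CPM in generation 2, against 1.39, 2.37 and 1.72 CPM in generation 1. The one to fall was dod-19 (log2 fold change -1.31). Wild-type animals had 5 of the 26 higher and 0 lower. Their means in generations 2 and 1 were 451 and 169 CPM for mtl-1 and 110 and 30.3 CPM for dod-3. The sum over the list averaged 6797 and 5076 CPM in wild-type and 6345 and 5244 CPM in simr-1 mutants, in the same order. The DAF-16 binding element TGTTTAC was in 11 of 27 windows of this list, 4.75% of all windows, 4.97% of those called higher and 5.29% of those called lower. The window of mtl-1 (chrV:6691814-6692113, minus strand, WBcel235) holds it on the other strand, in capitals, so that it reads GTAAACA.
mtl-1: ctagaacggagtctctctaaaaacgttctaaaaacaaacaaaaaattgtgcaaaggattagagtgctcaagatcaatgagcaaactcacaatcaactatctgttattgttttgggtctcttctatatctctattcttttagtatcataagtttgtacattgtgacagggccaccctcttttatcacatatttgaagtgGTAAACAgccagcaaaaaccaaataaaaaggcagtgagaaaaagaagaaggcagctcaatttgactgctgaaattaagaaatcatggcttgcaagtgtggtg
Fatty acid desaturases had 2 of 7 members (28.6%) higher, near the share of all genes (4 with library size alone), fat-3, with 499.9, 693 and 753 CPM in generation 2, against 227, 252 and 218 CPM in generation 1 (log2 fold change 1.39 ± 0.13 (SE), adjusted p = 6.8e-08), and fat-7, up 2.29-fold.

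Neuropeptide and insulin-like peptide genes rose widely, in 104 of 134 cases (77.6%, beside 26.4% of all genes), and none fell (median 1.71). Their summed mRNA averaged 1599.5 CPM in generation 2 and 660 CPM in generation 1. The wild-type sum averaged 1838 CPM in generation 2 and 1453 CPM in generation 1, with 23 of 131 genes higher and 1 lower. The antimicrobial peptide gene nlp-30 had 3.46, 4.58 and 3.53 CPM in generation 2, against 0.182, 0.408 and 0.344 CPM in generation 1 (log2 fold change 3.54 ± 0.31 (SE), adjusted p = 2.8e-08). Insulin-like genes ins-37 and ins-18 rose 12.1-fold and 10.9-fold, and ins-33 was at least 3.41-fold higher. Detoxification enzymes had 45 of 178 higher and 13 lower, or 25.3% and 7.30% of the list beside the 26.4% and 10.2% of all genes, and the 4 members with the largest fitted change, gst-34, gst-41, ugt-35 and ugt-56, had at most 1 count in generation 1. F-box and MATH-BATH genes had 142 of 400 (35.5%) higher and 15 (3.75%) lower. Here fbxa-185, fbxa-116, math-1 and fbxa-201 had no count in generation 1, and fbxa-185, with 1.08, 1.44 and 1.33 CPM in generation 2, was at least 19.8-fold higher.

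Genes first transcribed in the embryo were higher in 10 of 18 cases (55.6%, beside 26.4% of all genes) and lower in none (median 2.05). Of these sdz-24 had 18.6, 25.8 and 24.5 CPM in generation 2, against 1.27, 1.31 and 0.918 CPM in generation 1 (log2 fold change 4.22 ± 0.20 (SE), adjusted p = 8.1e-11). The T-box gene tbx-38 and the homeobox gene ceh-51 rose 10.1-fold and 8.15-fold, and sdz-31 rested on 2 counts in generation 1, with a ratio of 16.4 (95% exact binomial interval 4.32 to 139). The sum over the list was 56.7, 67.6 and 72.4 CPM in generation 2, against 25.7, 22.1 and 21.1 CPM in generation 1. Wild-type animals rose too, with 9 of 18 genes higher and 0 lower (median 1.47). Their sum averaged 72.2 CPM in generation 2 and 35 CPM in generation 1. By the interaction test the change was higher in simr-1 mutants for 3 of the 18 genes and lower for 3.

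Several of the strongest single changes lay outside the lists. The folate transporter gene folt-2 had 27.2, 4.47 and 5.99 CPM in generation 2, against 169, 155 and 158 CPM in generation 1 and was 12.7-fold lower (log2 fold change -3.66 ± 0.38 (SE), adjusted p = 1.9e-07), with replicate 1 the highest of generation 2 and a log2 fold change of -5.02 without it. The transcript T22F3.11 had 1.61, 2.93 and 2.15 CPM in generation 2, against 27.5, 33.3 and 10.1 CPM in generation 1 (log2 fold change -3.54 ± 0.35 (SE), adjusted p = 9.3e-08), and argk-1, for an arginine kinase, had 1.94, 1.44 and 1.69 CPM in generation 2, against 16.8, 23 and 7.98 CPM in generation 1 (log2 fold change -3.28 ± 0.31 (SE), adjusted p = 5.1e-08). Genes of sugar and glycerol handling were also among the 8 largest falls: the SWEET-family sugar transporter gene swt-6 had 2.58, 1.88 and 1.48 CPM in generation 2, against 13.7, 18 and 14.9 CPM in generation 1 and the glycerol-3-phosphate dehydrogenase gene gpdh-1 had 0.997, 0.994 and 0.614 CPM in generation 2, against 6.05, 6.2 and 6.43 CPM in generation 1. They fell 8-fold and 7.46-fold, and drd-50 fell 6.42-fold. Wild-type T22F3.11 was lower in generation 2 as well, with means of 1.13 CPM there and 96.6 CPM in generation 1. For the others, wild-type means in generations 2 and 1 were 10.4 and 5.07 CPM (folt-2), 2.24 and 1.89 CPM (argk-1) and 19.05 and 16.1 CPM (swt-6). They were 0.871 and 0.646 CPM for gpdh-1 and 3.14 and 2.01 CPM for drd-50.

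On the side of the rises, Y47D7A.15 had 4.49, 6.85 and 5.53 CPM in generation 2, against 0, 0.163 and 0 CPM in generation 1, where 2 counts in all stood behind the generation 1 level and the ratio was 124 (95% exact binomial interval 34.1 to 1027). C50F2.5 had 3.75, 5.85 and 5.48 CPM in generation 2, against 0.0605, 0.0816 and 0.115 CPM in generation 1 (log2 fold change 5.65 ± 0.40 (SE), adjusted p = 3.2e-09). Of the 5 largest gains in CPM among called genes 3 were in genes for proteases. The aspartyl protease gene asp-6 had 5695, 8214 and 7693 CPM in generation 2, against 2972, 2814 and 3070 CPM in generation 1 (log2 fold change 1.20 ± 0.15 (SE), adjusted p = 1.2e-06). The cathepsin B-like gene cpr-1 had 3642, 5122 and 4088 CPM in generation 2, against 1597, 1474 and 1442 CPM in generation 1 (log2 fold change 1.42). A second cathepsin B-like gene, cpr-9, had 3809, 5409 and 5128 CPM in generation 2, against 2247, 2086 and 2370 CPM in generation 1 (log2 fold change 1.01), which fell short of the 2-fold limit with DESeq2 (0.93), with the replicate block (0.99) and without any of 4 single libraries (0.91 to 1.00, the lowest without generation 2 replicate 2).

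The same step was next followed in wild-type animals, in which 1281 of 17097 genes were higher and 220 were lower in generation 2, or 7.49% and 1.29% (8.78% in either direction). Of the 4531 genes that rose in simr-1 mutants 790 (17.4%) also rose in wild-type, and these made up 62.4% of the 1266 genes called higher in wild-type that were tested in both. Of the 1751 genes that fell in simr-1 mutants 37 (2.11%) also fell in wild-type, or 17.6% of 210, and 55 rose there. Whether the change differed between the genotypes was tested as an interaction over the 12 libraries. In 3035 of 18127 genes the change was higher in simr-1 mutants and in 915 it was lower, or 16.7% and 5.05%. The first direction made up 76.8% of these calls with TMM, 66.6% with DESeq2's size factors, 65.3% with DESeq2 and 88.7% with library size alone.

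Sperm genes rose further in simr-1 mutants than in wild-type. Among major sperm proteins the change was larger in simr-1 mutants for 28 of 33 genes, and wild-type animals had 21 of 32 higher with a median of 1.38. Summed sperm protein mRNA in wild-type was 92.1, 118 and 93.1 CPM in generation 2, against 42.9, 39.8 and 43.8 CPM in generation 1. For msp-3 the difference between genotypes on the log2 scale was 2.79 ± 0.46 (SE), adjusted p = 1.3e-04. Other sperm genes had the larger rise in simr-1 mutants in 49 of 69 cases, and cuticle collagens in 90 of 160, with 8 in the opposite sense. Of all tested genes 16.7% and 5.05% were called in these directions. The adult collagen col-19 was one of these 8, with 824 CPM in generation 2 and 127 CPM in generation 1 in wild-type and a difference of -1.06 ± 0.26 (SE), adjusted p = 0.0026.

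Oocyte and eggshell genes differed in 23 of 29 cases, all lower in simr-1 mutants, and none of the 29 passed in wild-type. Wild-type sums were 10779, 7214 and 8907 CPM in generation 2, against 8412, 8089 and 7323 CPM in generation 1, so that the 3 simr-1 sums of generation 1 were the highest of the 12 and no simr-1 library of either generation fell below a wild-type library of the same generation. Wild-type means were 339 CPM in generation 2 and 311 CPM in generation 1 for rme-2, and 738 CPM in generation 2 and 633 CPM in generation 1 for cbd-1. For vitellogenins the change was lower in simr-1 mutants for 5 of 6 genes. Wild-type levels of vit-4 were 1340 ± 1374 CPM in generation 2 and 244 ± 106 CPM in generation 1 (SD, n = 3 each). For vit-3 they were 2090 ± 1062 CPM in generation 2 and 903 ± 319 CPM in generation 1. P granule and Z granule genes differed in 10 of 23 cases and Argonautes in 9 of 24 lower and 3 of 24 higher, whereas none of 23 mutator and polymerase genes and none of 30 meiotic genes passed the test of the difference.

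The levels in the other groups are set side by side without a test, because later generations would be compared with the same generation 1 libraries. Summed major sperm protein mRNA in simr-1 mutants averaged 89.7 ± 10.3 CPM at 20°C, and at 25°C 47.7 ± 8.61, 661 ± 116, 132 ± 23.2 and 138 ± 12.5 CPM in generations 1, 2, 7 and 10 (SD, n = 3 each). In wild-type it averaged 87.1 CPM at 20°C and 42.2, 101, 52.6 and 104 CPM in the same generations. Generation 2 of simr-1 mutants was thus the highest of the 10 groups. Oocyte and eggshell sums of simr-1 mutants were 25728 ± 449.9 CPM at 20°C and 27228 ± 1351, 11742 ± 1206, 22661 ± 608 and 22695 ± 553 CPM in generations 1, 2, 7 and 10. Those of wild-type were 24345 CPM at 20°C and 7941, 8966, 27785 and 20577 CPM. In both genotypes every library of generations 7 and 10 lay above every library of generation 2, and in wild-type above every library of generation 1 too.

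Chaperone sums were lowest in generation 2 of simr-1 mutants among their 5 groups, at 14040 CPM at 20°C and 11957, 5448, 11873 and 10019 CPM in generations 1, 2, 7 and 10 of simr-1 mutants. Those of wild-type were 14449 CPM at 20°C and 7796, 7349, 13560 and 7830 CPM in the same generations. Cuticle collagen sums were highest in generation 2 of the simr-1 mutants as well, at 20996 ± 1854 CPM, followed by 16118 ± 1125 CPM in generation 7 and, in wild-type, 14674 ± 2765 CPM in generation 2 (SD, n = 3 each), whose libraries overlapped with those of simr-1 generation 7. In each genotype every library of generation 2 was above every library of generation 1, with wild-type generation 1 the lowest of the 10 groups at 4343 ± 399.6 CPM.

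**Figure D4:**
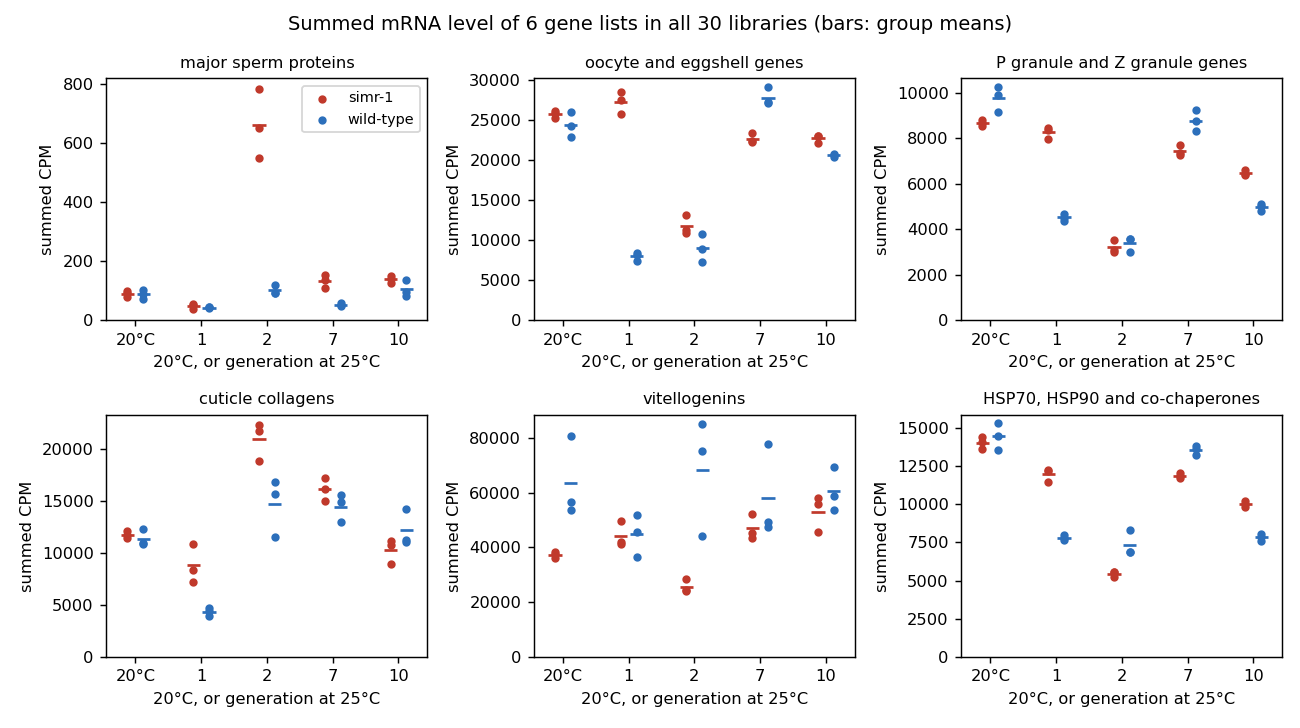
Summed CPM of 6 gene lists (vertical axes, from 0) at 20°C and in generations 1, 2, 7 and 10 at 25°C (horizontal axes), in simr-1 mutants (red) and wild-type animals (blue), with 1 point per library and bars at group means. Generation 2 of simr-1 mutants is the highest group for major sperm proteins (661 CPM) and cuticle collagens (20996 CPM) and the lowest for vitellogenins (25624 CPM) and chaperones (5448 CPM), while its germ granule sum (3199 CPM) did not differ from wild-type generation 2 (3389 CPM) beyond the spread of libraries.

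Small RNAs of the same genotype and generations were counted in 2 libraries each, with 8053965 and 7568102 counts in generation 2 and 4942204 and 11429717 in generation 1. Reads were counted on genes without regard to strand, so that antisense small RNAs and fragments of the mRNA cannot be told apart. Of 15392 genes tested, 488 were higher and 88 were lower in generation 2 with at least 10 reads in every 1000000 counted (RPM) in either group, or 3.17% and 0.572%. Of the 2549 genes that rose in mRNA and had a small RNA test, 105 (4.12%) were also higher in small RNA and none was lower, whereas of 1672 genes that fell in mRNA 49 (2.93%) were lower in small RNA and 2 (0.120%) were higher. Over all 12607 genes with both tests these shares were 1.75% and 0.682%. The median small RNA log2 fold change was 1.46 for genes that rose in mRNA, -0.07 for genes without a call and -0.46 for genes that fell.

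**Figure D5:**
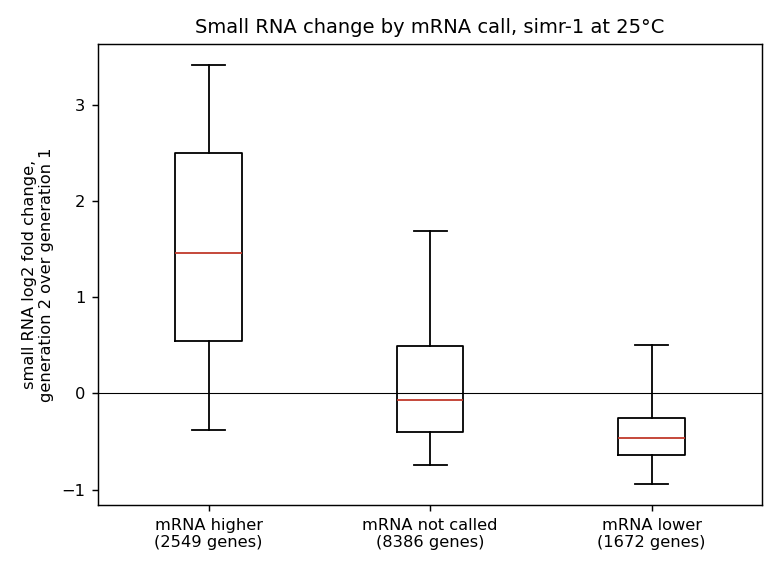
Small RNA log2 fold change of generation 2 over generation 1 in simr-1 mutants (vertical axis) for genes whose mRNA was higher (2549 genes), not called (8386) or lower (1672), with boxes at the quartiles, red lines at the medians (1.46, -0.07 and -0.46) and whiskers at the 5th and 95th percentiles. The middle 50% of genes with higher mRNA lies above 0 and that of genes with lower mRNA lies below 0.

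The genes named here for small RNAs were chosen after their values were seen. The neprilysin-like gene nep-13 had small RNA levels of 25.3 and 28.1 RPM in generation 2, against 2.17 and 2.9 RPM in generation 1 (log2 fold change 3.26 ± 0.20 (SE), adjusted p = 7.6e-08), and its mRNA rose as well (log2 fold change 3.33). Genes of sperm chromatin gave the same pattern, since spch-1 had 17.6 and 36.5 RPM in generation 2, against 5.73 and 5.97 RPM in generation 1 (log2 fold change 2.13 ± 0.28 (SE), adjusted p = 2.9e-05) and spch-2 had a small RNA log2 fold change of 2.41. All 33 major sperm protein genes had a small RNA test, with a median log2 fold change of 2.93, but none was called. In the other direction hcp-3, the centromeric histone gene, had 402 and 349.8 RPM in generation 2, against 877 and 886 RPM in generation 1 (log2 fold change -1.29 ± 0.09 (SE), adjusted p = 2.4e-07), and prg-2, a near copy of prg-1, had 146 and 126 RPM in generation 2, against 315 and 293 RPM in generation 1 (log2 fold change -1.21 ± 0.09 (SE), adjusted p = 4.2e-07). Among the lists, 5 of 24 Argonautes and 5 of 23 granule genes were lower in small RNA and none was higher.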

How the data were processed

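mRNA was measured in 3 simr-1 libraries each of generations 2 and 1 at 25°C, and in 24 further libraries. The authors trimmed adapters with Cutadapt and used HISAT2 and Salmon, and deposited an estimated count per gene name with no normalization; which tool gave the values is not given in the sources used here. The deposited small RNA values are estimated counts per gene from Bowtie2 alignments and featureCounts, on WS258. Values of repeated names were summed (45904 names, 45644 paired with a gene ID) and rounded. The edgeR 4.0.16 quasi-likelihood test (R 4.3.3) was run with TMM scaling, without a replicate block, on genes with at least 10 summed counts and only the compared groups. Calls required a 2-fold difference and a Benjamini-Hochberg adjusted p within 0.05, and for small RNAs also 10 RPM. Levels are CPM scaled over all 30 mRNA libraries, so that their ratios can differ slightly from the fitted fold changes. The code was tested on simulated data. DESeq2 1.42.0, other scalings and filters, a replicate block and leaving out each library were alternatives.

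Besides simr-1, the genes named were the 8 largest rises and 8 largest falls with at least 5 CPM and no overlap, the 5 largest CPM differences of called genes in each direction, up to 4 called members of each list (or 2 where none was called) and the 5 largest interactions in each direction; any other gene named was chosen after its values were seen. The members and lists were chosen with earlier results of these data known. Intervals and floors cover counting error only. Promoter windows are described by motif and carry no test.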

Additional observations from a re-analysis of the deposited data

Results flagged for a closer look

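The change across generations differed between simr-1 mutants and wild-type animals in 3035 genes where it was higher and 915 where it was lower in the mutants, by the interaction test over 12 libraries. Among genes of at least 5 CPM in one group the differences with the largest size are given here on the log2 scale. C02E7.7 (7.55) had 4.34, 7.84 and 7.27 CPM in generation 2, against 0.182, 0.0816 and 0.115 CPM in generation 1 in simr-1 mutants, with wild-type means of 1.25 CPM in generation 2 and 4.95 CPM in generation 1. The collagens were col-117 (a fitted 12.38, which rests on no count in generation 1 of the mutants), col-167 (6.74), col-91 (6.55) and col-147 (6.41). For col-147 the wild-type means were 5.69 CPM in generation 2 and 8.52 CPM in generation 1. In the opposite direction the differences were -5.76 for vit-4, -4.78 for folt-2, -4.52 for F15E6.4, -3.88 for the F-box gene fbxb-97 and -3.72 for the acyl-CoA dehydrogenase gene acdh-2. The gene fbxb-97 had 33.6, 25.8 and 29.7 CPM in generation 2, against 59.7, 53.2 and 60.5 CPM in generation 1 in simr-1 mutants, with wild-type means of 5.95 CPM in generation 2 and 0.784 CPM in generation 1. The change itself in simr-1 mutants fell short of the 2-fold limit for fbxb-97 with library size alone (-0.73), with the filter of edgeR (-0.98), with all 30 mRNA libraries in a fit (-0.95) and without generation 2 replicate 2 (-0.96), and for F15E6.4 with library size alone (-0.77), with all 30 mRNA libraries in a fit (-0.99) and without generation 2 replicate 2 (-0.84), generation 2 replicate 3 (-0.95) or generation 1 replicate 3 (-0.94), while it was -1.72 without generation 2 replicate 1. Without wild-type generation 2 replicate 1 the difference between genotypes was -2.58 for folt-2, -2.79 for F15E6.4, -4.49 for vit-4 and -2.82 for acdh-2.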

How the results depend on the processing

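The counts of genes higher and lower in generation 2 of simr-1 mutants (4531 and 1751) were 3622 and 2188 with DESeq2, 4166 and 2227 with its size factors, 6048 and 506 with library size alone, 3758 and 1385 with the filter of edgeR, 4530 and 1780 with no filter beyond 1 count, 6892 and 5459 without the fold limit and 4961 and 1282 when all 30 mRNA libraries shared a fit. In the test of the difference between genotypes, library size alone gave 534 lower genes in place of 915. Leaving out 1 library at a time gave 4165 to 4498 higher and 1582 to 2019 lower genes in simr-1 mutants, and in wild-type 966 to 1177 higher and 158 to 390 lower genes, the highest without generation 2 replicate 1. For small RNAs it gave 386 to 577 higher and 56 to 216 lower genes, the highest number lower without generation 2 replicate 1 and the fewest without replicate 2, and for the difference between genotypes 2490 to 3127 and 734 to 1157. Where an arm was left with 1 library, that library was assumed to vary like the others. With the replicate number as a block the counts were 4423 and 1764 in simr-1 mutants, 2776 and 882 for the difference and 511 and 92 for small RNAs. Deviations of libraries with the same number had correlations across genes of 0.106, -0.128 and -0.307 in simr-1 mRNA. Those of libraries with unlike numbers ranged from -0.193 to 0.275. With 3 libraries per group these values cannot show whether the numbers pair the libraries. Of 158 results on 148 named genes, no called one changed direction under any alternative run and 15 lost their call under at least 1. Medians of the ribosomal, respiratory chain and small heat shock lists, all near 0, changed sign with the scaling. Genes under about 1 CPM rest on few counts per library, and small folds there could not be detected at this depth.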

Other observations

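The changes were not spread evenly over the chromosomes. Of 2341 tested genes on the X chromosome 24.3% were higher and 4.10% were lower in generation 2 of simr-1 mutants, against 26.9% and 11.2% of 14710 genes on the autosomes. Chromosome V had the highest share of risen genes (30.1%) and chromosome III the lowest (18.8%), while chromosome I had the highest share of fallen genes (14.6%). Of 801 pseudogenes 184 (23%) were higher and 117 (14.6%) were lower, beside 26.4% and 10.2% of all tested genes. These shares are descriptions of the tested genes and carry no test.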
